A study of Homo sapiens with 4 samples.

Results

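A set of 10 genes that encode feedback inhibitors of the ERK pathway was followed with and without overexpression of the transcription factor ETS1 in TE5, a tumour cell line labelled as human squamous cell carcinoma of the oesophagus. They are 5 dual-specificity phosphatases (DUSP1, DUSP4, DUSP5, DUSP6 and DUSP10), 3 Sprouty genes (SPRY1, SPRY2 and SPRY4) and 2 Spred genes (SPRED1 and SPRED2). The 10 are part of the DUSP, SPRY and SPRED families, of which other genes, such as DUSP7, SPRY3 and SPRED3, are described further below. They were taken by gene name out of 55764 genes in the deposited expression table, and all 10 were present. The ETS1 group consists of 2 bulk RNA-seq libraries of TE5 cells infected with a lentiviral vector that carries human ETS1 behind the constitutive CMV promoter. The control group consists of 2 libraries of TE5 cells given the empty backbone, whose genotype the labels give as WT. All 4 libraries therefore come from vector-carrying, selected cells of 1 tumour line. The labels do not say whether a single clone or a pool was grown, nor whether the libraries of a group came from separate cultures. The p-values measure the spread between these libraries, which may be technical.

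ERK is the last kinase of a relay in which activated RAS switches on RAF, RAF phosphorylates MEK, and MEK phosphorylates ERK. The relay is held in check by proteins whose own genes are often switched on by ERK signalling. The DUSP proteins remove the activating phosphates from ERK, JNK or p38 kinases, Sprouty proteins act between growth factor receptors and RAF, and Spred proteins bring the RAS inhibitor neurofibromin to the membrane. ETS1 is itself a substrate of ERK, and squamous tumours of the oesophagus often carry amplified or activated growth factor receptors that feed into this pathway.

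Levels are in FPKM, a unit that divides a gene's sequenced fragments by its length and by the size of the library, so that levels can be compared between genes. ETS1 stood at 0.491 and 0.509 FPKM in the control libraries and at 1.84 and 1.87 in the ETS1 libraries, a 3.71-fold difference in the direction of the labels. The ETS1 libraries were 1.35 times deeper (57269984 and 56502875 reads recovered from the deposited values, against 40356723 and 44119604). Genes were tested with limma on log2(FPKM + 1) where their mean FPKM over the 4 libraries was at least 1, and called at a Benjamini-Hochberg adjusted p under 0.05. Of 14306 genes tested, 59.1% were called, 30.7% higher and 28.4% lower in ETS1 cells, so a call by itself does not set a gene apart here. The 6 squamous markers examined (KRT5, KRT14, KRT6A, TP63, IVL and SPRR1A) were listed at 0 in both control libraries and reached at most 0.0270 FPKM, so these markers do not bear out the squamous label at the RNA level. The summed epithelial markers, mostly the simple keratins KRT8 and KRT18, lay between 16.8 and 16.9 FPKM in controls and at 17.2 in ETS1 cells, but its members moved in opposite directions. KRT8 rose by 0.62 and KRT18 fell by 0.29 (limma adjusted p = 0.000591 and 0.00223), and under the filter CDH1 averaged 0.569 and 0.998 FPKM and CLDN4 0.647 and 0.319 FPKM in control and ETS1 cells. Of 5 haematopoietic markers the sum was 0.399 to 0.446 FPKM in controls and 1.14 in ETS1 cells, made mainly of CD14 in controls and of HBB with CD14 in ETS1 cells, while LYZ was at 0 in both controls and PTPRC averaged 0.00583 and 0.00208 FPKM. The 5 endothelial and fibroblast markers in the table summed to 2.12 to 2.25 and 3.05 to 3.14 FPKM, nearly all COL1A1, with CDH5 at 0 in both controls. The part of these differences in the results on the feedback inhibitors was not tested.

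Of the 10 members, 6 passed the level filter, 4 did not, and of the 6 tested 3 were called higher (DUSP1, DUSP5, SPRY2) and 1 lower (SPRED2), against backgrounds of 30.7% and 28.4%. The share of members called, 4 of 6, is near the 59.1% of all genes. DUSP1 was the most abundant member in both groups and nearly doubled, from 10.9 ± 0.297 to 20.8 ± 0.499 FPKM (SD, n = 2). DUSP4, its close relative, ran the other way and stood 2.10-fold lower in ETS1 cells, at a level just under the filter. SPRED2 was at 0.712 of its control level. SPRY1 and SPRED1 had ratios of 1.06 and 1.01 and were not called in any fit of their levels. DUSP6 and SPRY4, members widely used as readouts of ERK activity in other cells, were close to silent in all 4 libraries. In bulk RNA, more cells that express a gene and more of its RNA per cell cannot be told apart.

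**Figure D1:**
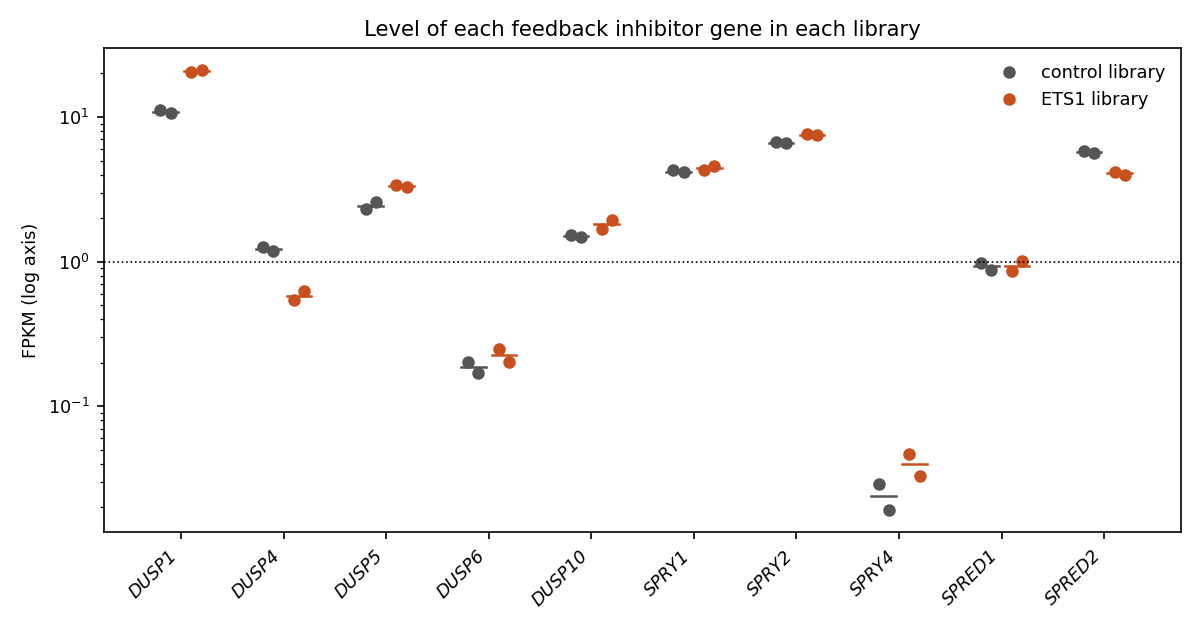
FPKM of the 10 feedback inhibitor genes on a log axis, with 1 point per library (grey, 2 control libraries; orange, 2 ETS1 libraries), short lines at the group means and a dotted line at the filter of 1 FPKM. DUSP1 lies highest in both groups, DUSP4 falls from above the dotted line to below it, and DUSP6 and SPRY4 lie far below it in all libraries.

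Of the 4 called members 3 have an entry among the RefSeq promoter sequences used here (GRCh38.p14, 250 bases before to 50 bases after an annotated start), and their upstream parts are printed because the direction of their change differs while all 3 are rich in G and C. Among the 10 members 8 matched by symbol. DUSP4 and DUSP5 are named only. Where a gene has several annotated starts the one farthest upstream is shown, cut to bases outside annotated exons. Capitals mark 4 motifs on either strand. They are the ETS-type motif CCGGAA, the AP-1 motif TGANTCA, the cAMP response element TGACGTCA and its shorter core TGACG, which overlaps the full element.
DUSP1 promoter, chr5:172771196-172771445, minus strand: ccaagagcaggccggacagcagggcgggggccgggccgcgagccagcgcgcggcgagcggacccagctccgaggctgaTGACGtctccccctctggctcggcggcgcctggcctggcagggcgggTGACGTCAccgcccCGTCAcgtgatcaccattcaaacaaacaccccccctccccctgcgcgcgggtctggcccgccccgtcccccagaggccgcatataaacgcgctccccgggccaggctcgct
SPRY2 promoter, chr13:80341127-80341376, minus strand: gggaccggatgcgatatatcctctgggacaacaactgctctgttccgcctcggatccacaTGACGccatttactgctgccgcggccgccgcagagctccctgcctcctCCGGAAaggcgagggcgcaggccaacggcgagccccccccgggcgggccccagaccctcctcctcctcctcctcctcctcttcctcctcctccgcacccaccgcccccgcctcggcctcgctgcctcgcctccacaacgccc
SPRED2 promoter, chr2:65432638-65432849, minus strand: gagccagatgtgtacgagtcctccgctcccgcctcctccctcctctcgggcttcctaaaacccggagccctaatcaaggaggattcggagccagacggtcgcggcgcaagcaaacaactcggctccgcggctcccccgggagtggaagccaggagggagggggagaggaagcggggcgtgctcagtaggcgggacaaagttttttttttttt
The printed stretches are 74.4% (DUSP1), 70.4% (SPRY2) and 61.8% (SPRED2) G and C. The DUSP1 stretch holds the full cAMP response element, starting 125 bases before the annotated start, and 4 matches to its core, 2 of them inside the full element. Of 34943 RefSeq promoter windows of 300 bases, 1.84% hold the full element and 24.5% the core. The SPRY2 stretch holds CCGGAA starting 142 bases before its start, which 17.2% of promoters hold, and 1 core of the cAMP response element. The SPRED2 stretch holds none of the 4, although 1 TGACG core lies just after that start and the other SPRED2 window holds 2 matches to the AP-1 motif, which 7.72% of promoters hold. The bare ETS core GGAA occurs in 95.4% of all windows, but on neither strand of the 300-base DUSP1 window. A window of DUSP10 also lacks it. A match or its lack describes these letters only.

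Among the members, DUSP1, DUSP4 and DUSP5 are inducible nuclear phosphatases. DUSP1 acts on p38, JNK and ERK and is a classic immediate early gene, lies at chr5:172768090-172771195 (GRCh38, GENCODE 29, minus strand), and is the gene with the cAMP response element printed above. DUSP1 stood at 11.1 and 10.7 FPKM in control libraries 1 and 2 and at 20.4 and 21.1 FPKM in ETS1 libraries 1 and 2. The groups lay far apart, with no ETS1 library under 20.4 and no control library over 11.1 FPKM. The underlying reads were 906 and 953 in controls and 2368 and 2417 in ETS1 cells. DUSP1 rose by 0.87 on the log2(FPKM + 1) scale (SE 0.036, 95% interval 0.78 to 0.97, limma adjusted p = 0.000439), a 1.91-fold ratio of mean FPKM. Only 119 of the 14306 tested genes, or 0.832%, rose more. In level it moved from above 66.5% of tested genes in controls to above 82.8% in ETS1 cells.

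DUSP4 is a phosphatase of ERK, JNK and p38 in the nucleus and lies at chr8:29333064-29350668 (minus strand). Its 4 values were 1.26 and 1.19 FPKM in controls and 0.542 and 0.622 FPKM in ETS1 cells. Both ETS1 libraries were under both controls, and the ETS1 value was 2.10-fold lower (1.22 ± 0.0517 against 0.582 ± 0.0568 FPKM, SD, n = 2). DUSP4 missed the filter because its mean over all 4 libraries was 0.903 FPKM, so the main test gives it no p. With no filter limma gave −0.49 on the log2(FPKM + 1) scale (adjusted p = 0.0237), a scale that understates changes at such levels. The reads behind these values were 370 and 381 against 226 and 256. On those whole reads limma's voom gave a log2 change of −1.07 (95% interval −1.31 to −0.84, adjusted p = 5.58e-06), in a fit that called 59.9% of 16270 genes and 5 of the 9 members it covered. The authors' deposited table gives −1.05 (SE 0.16, adjusted p = 1.10e-10), and calls 51.2% of its genes with an adjusted p and 4 of the 8 members that have one.

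DUSP5 is a nuclear phosphatase with high selectivity for ERK, at chr10:110497838-110511544 (plus strand). DUSP5 measured 2.31 and 2.58 FPKM in controls and 3.40 and 3.26 FPKM in ETS1 cells. Both ETS1 libraries were higher than both controls, though the control values spread more than the ETS1 values. DUSP5 rose by 0.33 (SE 0.058, 95% interval 0.18 to 0.48, limma adjusted p = 0.00758), or 1.36-fold in FPKM. Its processed pseudogene DUSP5P1 can share reads with it. That pseudogene read 0.973 and 0.982 FPKM in controls and 1.17 and 0.981 in ETS1 cells, groups that overlap, so the DUSP5 values are uncertain by whatever was assigned between these copies.

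DUSP6, the cytoplasmic ERK phosphatase, lies at chr12:89347232-89353271 (minus strand). It was at 0.203 and 0.171 FPKM in controls and 0.248 and 0.202 FPKM in ETS1 cells, and the groups overlapped. These values rest on 38, 35, 66 and 53 reads. Summed over the libraries of a group and scaled to depth, the ETS1 to control ratio was 1.21, with a 95% interval of 0.897 to 1.64 that covers counting error only. A difference was not detectable at this depth (voom log2 change 0.26, 95% interval −0.27 to 0.80, adjusted p = 0.373). An antisense gene, AC024909.2, overlaps an exon of DUSP6, and since the use of strand in the counting is not given in the sources used here, their reads cannot be told apart.

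DUSP10, which acts on p38 and JNK more than on ERK, lies at chr1:221701424-221742176 (minus strand). DUSP10 stood at 1.52 and 1.48 FPKM in controls and 1.69 and 1.93 FPKM in ETS1 cells, with the 2 ETS1 libraries farther apart than the controls. The groups did not overlap, but the change of 0.17 (SE 0.066) was not called (limma adjusted p = 0.0815), and the adjusted p lay between 0.0511 and 0.357 over 16 alternative settings. Taken as a family, the 5 DUSP members summed to 16.4 and 16.1 FPKM in controls and 26.3 and 27.2 FPKM in ETS1 cells, a 1.65-fold ratio. DUSP1 made most of that difference. Without it the sum moved from 5.35 ± 0.0849 to 5.95 ± 0.0866 FPKM (SD, n = 2). DUSP1 supplied 67.7% and 66.4% of the DUSP sum in controls and 77.6% and 77.9% in ETS1 cells, while DUSP4 went from 7.68% and 7.37% to 2.06% and 2.29%. The ratio of DUSP1 to DUSP4 was 8.81 and 9.00 in controls and 37.7 and 34.0 in ETS1 cells.

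**Figure D2:**
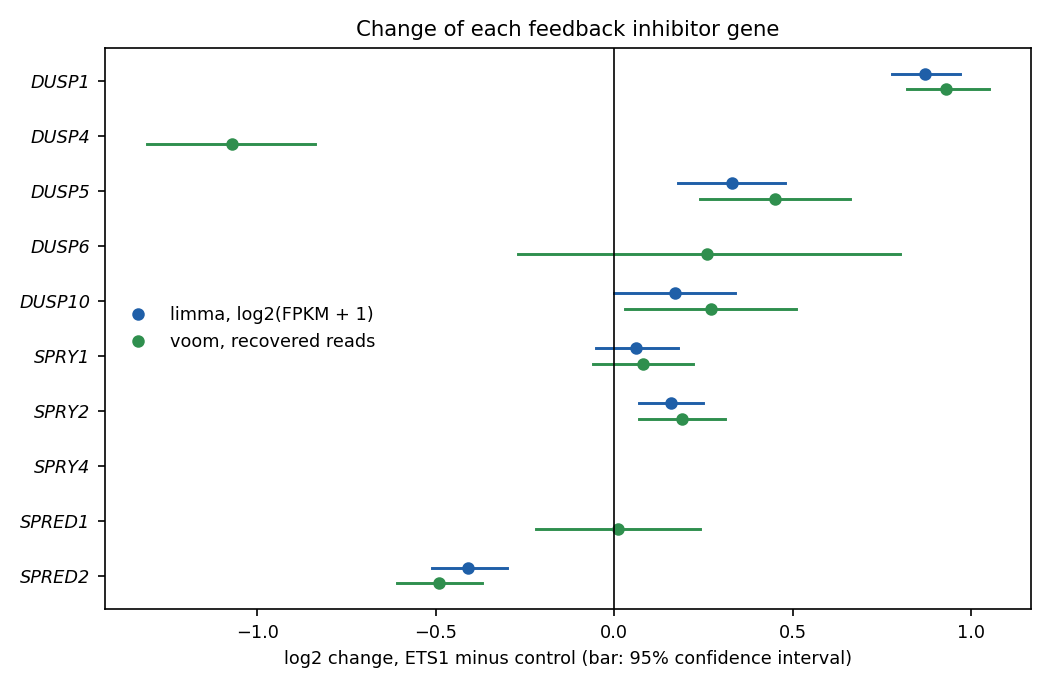
Log2 change (ETS1 minus control) of each member with its 95% confidence interval, from limma on log2(FPKM + 1) (blue, the 6 members over the filter) and from voom on recovered reads (green, 9 members, SPRY4 having too few reads). In the voom fit DUSP1 at 0.93 and DUSP4 at −1.07 mark the extremes, the intervals of SPRY1, SPRED1 and DUSP6 span 0, and the blue interval of DUSP10 reaches it.

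The Sprouty genes encode membrane-associated proteins that blunt signalling from receptor tyrosine kinases to RAF. SPRY2, at chr13:80335976-80340951 (minus strand), was the second most abundant member, with the CCGGAA motif shown above in its farthest upstream promoter window and in neither of its other windows. SPRY2 measured 6.74 and 6.57 FPKM in controls and 7.65 and 7.48 FPKM in ETS1 cells. Both ETS1 libraries were above both controls, by more than the gap within either group, and the ratio was 1.14. It was called higher with a log2 change of 0.16 (SE 0.035, 95% interval 0.07 to 0.25, limma adjusted p = 0.0148). That call ended without ETS1 replicate 1 (adjusted p = 0.0947) and without ETS1 replicate 2 (adjusted p = 0.0640), and the authors' deposited table does not call it (0.15, adjusted p = 0.109).

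SPRY1, at chr4:123396795-123403760 (plus strand), encodes a Sprouty protein of the same inhibitory class, and 1 of its promoter windows also holds CCGGAA, starting 67 bases before the start. SPRY1 was at 4.27 and 4.14 FPKM in controls and 4.30 and 4.57 FPKM in ETS1 cells. The lower ETS1 library stood only just above the higher control. The change of 0.06 (95% interval −0.05 to 0.18, limma adjusted p = 0.278) was not called. SPRY4, at chr5:142310427-142326455 (minus strand), was the rarest member, with 7 and 5 reads in controls and 16 and 11 in ETS1 cells (0.0292, 0.0191, 0.0470 and 0.0327 FPKM). Its depth-scaled ratio of 1.67 has a counting interval of 0.818 to 3.62, so a difference was not detectable at this depth. The 3 Sprouty members together summed to 10.9 ± 0.223 FPKM in controls and 12.0 ± 0.0617 FPKM in ETS1 cells (SD, n = 2), a 1.11-fold ratio.

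The Spred proteins carry a Sprouty-like domain and recruit neurofibromin, the RAS inhibitor encoded by NF1. SPRED2, at chr2:65310851-65432637 (minus strand), stood at 5.78 and 5.66 FPKM in controls and 4.17 and 3.97 FPKM in ETS1 cells. Both ETS1 libraries were below both controls, by far more than the gap within either group. SPRED2 fell by 0.41 on the log2(FPKM + 1) scale (SE 0.041, 95% interval −0.51 to −0.30, limma adjusted p = 0.00166), and 9.33% of tested genes fell more. SPRED1, at chr15:38252326-38357249 (plus strand), gave 0.978 and 0.881 FPKM in controls and 0.866 and 1.01 FPKM in ETS1 cells. Both controls lay inside the range of the ETS1 libraries, and voom gave 0.01 (95% interval −0.22 to 0.24, adjusted p = 0.925). Its mean of 0.934 FPKM left it just under the filter, as DUSP4, while DUSP10 at 1.66 was the member just over it. NF1 itself was not called in the main test (0.14, limma adjusted p = 0.0630), but was called higher by voom (0.19, adjusted p = 0.00226) and in the authors' deposited table (0.16, adjusted p = 0.0101).

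The 2 Spred members summed to 6.65 ± 0.153 FPKM in controls and 5.01 ± 0.0447 FPKM in ETS1 cells, a ratio of 0.753. The Sprouty and Spred sums thus moved in opposite directions, and their total was 17.5 ± 0.376 against 17.1 ± 0.0170 FPKM (SD, n = 2). The ratio of SPRY2 to SPRED2 was 1.17 and 1.16 in controls and 1.83 and 1.89 in ETS1 cells. In order of level, controls ran DUSP1, SPRY2, SPRED2, SPRY1, DUSP5, DUSP10, DUSP4, SPRED1, DUSP6 and SPRY4. In ETS1 cells SPRY1 passed SPRED2 and SPRED1 passed DUSP4, and the rest of the order was the same. No neighbours in either order had overlapping library values. The groups did not overlap for 8 of the 10 members and for 6 of the 6 tested, where 82.0% of all tested genes showed the same separation.

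The members lie on 9 chromosomes, and the genes around some of them also differed between the groups. The median log2 change of the 50 nearest genes along the chromosome, on the read-based voom scale, was 0.01 around DUSP1, 0.11 around both DUSP5 and DUSP10, 0.19 around DUSP6, and 0.22 around SPRED2. It was 0.29 around SPRY1 and 0.35 around SPRY2, both larger than the change of the gene itself (0.08 and 0.19). Around DUSP4 and SPRED1 it was −0.39 and −0.38. With the neighbours' median removed from each gene in the limma fit, which then called 60.0% of 12023 genes, 5 of the 6 members over the filter were called. DUSP1 kept 0.87 (adjusted p = 0.000173), DUSP5 gave 0.26 (adjusted p = 0.0113) and SPRED2 gave −0.54 (adjusted p = 0.000454). SPRY2 reversed to −0.11 (adjusted p = 0.0474) and SPRY1 to −0.14 (adjusted p = 0.0391), so the direction given above for both holds for their levels and not for their levels relative to their neighbours. With the same step in the voom fit, which called 62.0% of 13149 genes and 7 of the 9 members it covered, DUSP4 was at −0.68 (adjusted p = 0.000168) and SPRED1 at 0.40 (adjusted p = 0.00603); the level of SPRED1 itself had a ratio of 1.01, while the median gene around it was lower.

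**Figure D3:**
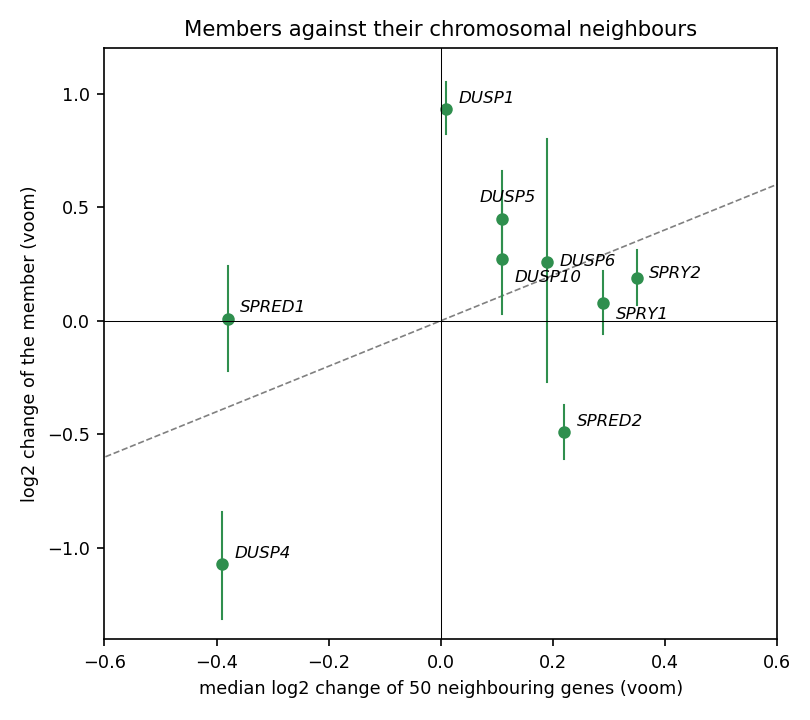
Log2 change of 9 members from voom on recovered reads (vertical axis, bars are 95% confidence intervals) against the median log2 change of the 50 nearest genes on the chromosome (horizontal axis); the dashed line marks equal change. DUSP1 stands at 0.93 over neighbours at 0.01, DUSP4 and SPRED2 lie under the line, and SPRY1 and SPRY2 lie under it although their own changes are above 0.

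The wider pathway was examined through lists of its parts. The counts called in each list are to be read against all tested genes, of which 30.7% were called higher and 28.4% lower. Of 17 tested genes of the RAS-RAF-MEK-ERK core, 7 were called higher and 2 lower, with a median log2 change of 0.14 against 0.02 over all tested genes. The list also holds genes of RAS inhibitors, NF1 and RASA1. RASA1 was among the 7 called higher (0.42, limma adjusted p = 0.00221). On the log2(FPKM + 1) scale the largest rises were those of SOS1, an activator of RAS (0.51, adjusted p = 0.000778), NRAS (0.46, adjusted p = 0.00680) and the phosphatase PTPN11, which relays receptor signals to RAS (0.43, adjusted p = 0.000981), all from limma. By ratio of mean FPKM the adaptor gene GAB1, named after its values were seen, rose more (1.55 against 1.50 for SOS1; 0.40 on the log2(FPKM + 1) scale, limma adjusted p = 0.00322). HRAS fell by 0.26 and MAP2K2, which encodes the MEK2 kinase, by 0.17 (limma adjusted p = 0.00266 and 0.00765), the latter not called without ETS1 replicate 2 (adjusted p = 0.0533), under quantile normalization (−0.05, adjusted p = 0.196) or with the neighbours' median removed (−0.08, adjusted p = 0.0686). MAPK3, which encodes an ERK kinase, was not called (0.06, limma adjusted p = 0.206), except under quantile normalization (0.14, adjusted p = 0.0353).

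Transcripts known to follow ERK activity moved both ways. Of 20, 15 were tested, 5 were called higher and 3 lower, with a median of 0.02. The filter shaped these counts, since FOSL1, 1 of the 5 called higher, passed it only through its level in ETS1 cells (0.867 FPKM on average in controls, 1.19 in ETS1 cells), while FOSB, with the opposite pattern, did not pass. EGR1, an immediate early transcription factor, stood at 2.28 and 2.23 FPKM in controls and 6.02 and 6.05 FPKM in ETS1 cells. It rose by 1.11 (SE 0.039, limma adjusted p = 0.000435), more than DUSP1. IER3, another immediate early gene, rose by 0.73 and the AP-1 gene JUNB by 0.39 (limma adjusted p = 0.000595 and 0.00146). FOSB, an AP-1 gene chosen after its values were seen, went the other way, from 1.13 and 1.19 FPKM to 0.765 and 0.762. It missed the filter at a mean of 0.962 FPKM, and fell by 0.61 in voom (adjusted p = 0.000387), which called 5 genes of the list lower. CCND1, which encodes cyclin D1, stood at 7.10 and 7.32 FPKM in controls and 3.81 and 3.74 FPKM in ETS1 cells. It fell by 0.78 (limma adjusted p = 0.000482), with the receptor gene EPHA2 (fell by 0.48, adjusted p = 0.000978) and the growth factor gene HBEGF (fell by 0.18, adjusted p = 0.0275). The HBEGF call ended without any 1 of the 4 libraries (adjusted p 0.0760 to 0.137). The ETS-family genes ETV4 and ETV5, often used beside DUSP6 and SPRY4 as ERK readouts, were as low as these, at 0.107 and 0.123 FPKM in controls and 0.112 and 0.128 in ETS1 cells on average. PHLDA1 read 0.422 and 0.353 FPKM in controls and 0.526 and 0.660 in ETS1 cells, under the filter.

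**Figure D4:**
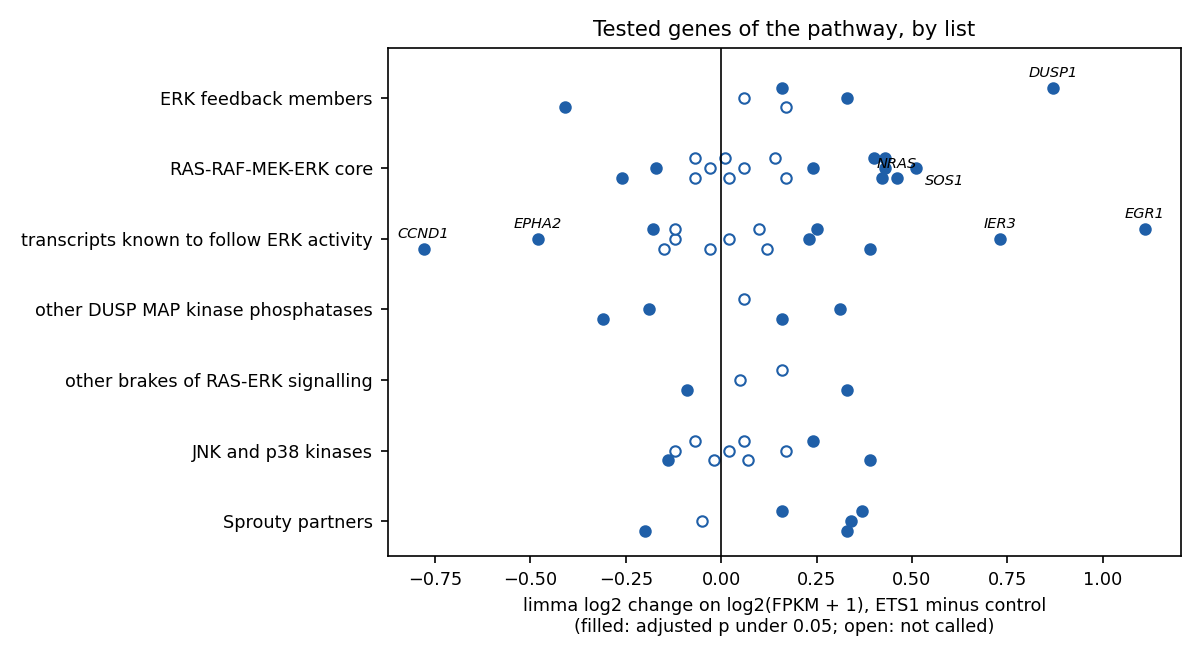
Limma log2 change (ETS1 minus control, on log2(FPKM + 1)) of each tested gene of the members and of 6 further lists of the pathway; filled points were called at an adjusted p under 0.05, open points were not, and genes beyond 0.45 in size are named. Each list holds called genes on both sides of 0, and EGR1, DUSP1 and IER3 lie farthest to the right, CCND1 farthest to the left.

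The other DUSP phosphatases of MAP kinases also divided, with 2 called higher and 2 lower of 5 tested and a median of 0.06. DUSP16, a JNK phosphatase, rose from 7.69 ± 0.0873 to 9.77 ± 0.141 FPKM (0.31, limma adjusted p = 0.00182), and was not called with the neighbours' median removed (0.09, adjusted p = 0.0682). DUSP8, which has pseudogene copies that can share reads, was called higher by 0.16 (limma adjusted p = 0.0392), but not without control replicate 1, ETS1 replicate 1 or ETS1 replicate 2 (adjusted p = 0.110, 0.171 and 0.0844). DUSP7 and DUSP9, cytoplasmic phosphatases of the same subgroup as DUSP6, fell by 0.31 and by 0.19 (limma adjusted p = 0.00953 and 0.0183). The DUSP9 call ended without control replicate 1 (adjusted p = 0.0521) and without ETS1 replicate 1 (adjusted p = 0.0897). At 6.64 ± 0.516 and 9.13 ± 0.0389 FPKM in controls (SD, n = 2) both stood far above DUSP6, at 0.187 FPKM. DUSP2 was not called (0.06, limma adjusted p = 0.395).

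Among 6 other brakes of the pathway 4 were tested, 1 was called higher and 1 lower, and the median was 0.11. ERRFI1, an inhibitor of the EGF receptor, rose from 10.3 ± 0.329 to 13.2 ± 0.324 FPKM (0.33, limma adjusted p = 0.00224). PEBP1, the RAF kinase inhibitor protein and by far the most abundant of these genes, fell by 0.09 (limma adjusted p = 0.0286), from 199 ± 0.398 to 187 ± 1.36 FPKM (SD, n = 2). The PEBP1 call ended without any 1 of the 4 libraries (adjusted p 0.0694 to 0.161), and quantile normalization turned its direction (0.08, adjusted p = 0.0406). IL17RD, an inhibitor of FGF signalling to ERK, and LZTR1, an adaptor for RAS degradation, were not called (0.16 and 0.05, limma adjusted p = 0.0756 and 0.156). IL17RD was called higher by voom (0.31, adjusted p = 0.00493) and in the authors' deposited table (0.25, adjusted p = 0.0445), and LZTR1 under quantile normalization (0.10, adjusted p = 0.0302) and with the neighbours' median removed (0.13, adjusted p = 0.0108). The remaining Sprouty and Spred genes, SPRY3 and SPRED3, were under the filter, at 0.356 and 0.272 FPKM in controls and 0.464 and 0.377 FPKM in ETS1 cells on average.

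Of the proteins that Sprouty and its relatives work with, 4 of 6 tested genes were called higher and 1 lower, with a median of 0.24. Over all tested genes 30.7% were called higher and 28.4% lower. CBL, the ubiquitin ligase that Sprouty 2 binds, rose by 0.37, its relative CBLB by 0.34 and the caveolar protein gene CAV1 by 0.33 (limma adjusted p = 0.00487, 0.0123 and 0.00621), while the ubiquitin ligase gene SIAH2 fell by 0.20 (limma adjusted p = 0.0203). CBLB passed the filter only through its level in ETS1 cells (0.779 FPKM on average in controls, 1.26 in ETS1 cells), so its limma call lends the count no support. The scale understates a change at such levels, and its ratio of mean FPKM was 1.62 (voom 0.69, against 0.45 for CBL). The count called higher fell from 4 to 2 without ETS1 replicate 1, where CBLB was among those lost (adjusted p = 0.0696), and to 2 with the neighbours' median removed (CBLB 0.16, adjusted p = 0.0752). None was called lower without control replicate 1 or ETS1 replicate 2, since the SIAH2 call ended there (adjusted p = 0.0631 and 0.0877). Among the JNK and p38 kinases, which DUSP1 and DUSP10 dephosphorylate, and the MAP2K kinases that activate them, 2 of 10 tested genes were called higher and 1 lower, with a median of 0.04. The count called lower was 0 without ETS1 replicate 1 or ETS1 replicate 2, and 3 both with the trend on gene length removed and in voom with the neighbours' median removed. In the main test the genes called higher were MAP2K4 (0.39), an activator of JNK and p38, and MAPK8 (0.24), which encodes JNK1. The gene called lower there was MAP2K7 (−0.14), an activator of JNK. Their limma adjusted p were 0.00150, 0.00852 and 0.0140. Without ETS1 replicate 1 neither MAPK8 (adjusted p = 0.0519) nor MAP2K7 (adjusted p = 0.0821) was called, and MAP2K7 was not called without ETS1 replicate 2 (adjusted p = 0.0877). With the neighbours' median removed MAPK8 gave 0.12 (adjusted p = 0.0594) and MAP2K7 −0.09 (adjusted p = 0.0512), and with the trend on gene length removed MAPK8 gave 0.11 (adjusted p = 0.0875).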

How the data were processed

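RNA of 2 ETS1 and 2 control libraries was sequenced in bulk. The authors' deposited tables hold FPKM per gene and, in a second table, mean normalized counts (a signal averaged over libraries), log2 fold changes, p-values and adjusted p-values, per the file headers. The submitters' processing notes name HISAT2, HTSeq, DESeq2 and the build hg38 (GRCh38). Roles, annotation, strand and any shrinkage are not given in the sources used here. FPKM was tested with limma 3.58.1 (R 4.3.3) as log2(FPKM + 1), mean FPKM of at least 1, intensity trend, Benjamini-Hochberg over 14306 genes, two-sided; an exact permutation of 4 values cannot go below p = 0.333. Reads were recovered as whole numbers from FPKM and the mean normalized counts (99.7% of values within 0.05 of a whole number). DUSP6 and SPRY4 have no mean normalized count. Their reads are the smallest whole numbers in the ratio of their 4 FPKM values, which that check does not cover. Voom used genes with a mean of at least 10. Positions came from GENCODE 29, promoters from RefSeq. The members and lists were chosen with earlier results of these data known. Genes named are the members, ETS1, and the other DUSPs and brakes. Of each other list the 3 called genes per direction with the largest change are named. Further genes named are MAPK3, CCND1, PHLDA1, ETV4, ETV5, EGR1 and NF1, besides cell type markers. A pseudogene and an antisense gene that can share reads with members are named as well. FOSB, FOSL1, GAB1 and RASA1 were named after their values were seen. Tests were checked on simulated data. Proteins were not analysed here, and a few genes first placed in the lists were left out of them and are not reported here.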

Additional observations from a re-analysis of the deposited data

How the results depend on the processing

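Alternatives covered pseudocount, filter, scaling, prior, threshold, voom, the authors' deposited table, length trend, local chromosomal median and leaving out each library; removing the local median in voom was chosen after seeing the data. DUSP1 kept its direction and call under 17 of 17, DUSP5 and SPRED2 under 16 of 16. SPRY1 reversed to −0.14 in limma and −0.21 in voom without the local median, and SPRY2 to −0.11 and −0.16. SPRY2 was also no longer called at a threshold of 0.01 (0.16) and in the authors' deposited table (0.15), and ranged from 0.15 to 0.18 with 1 library left out. The genes called fell from 8451 to 5562 when the filter was raised to 5 FPKM and to 5386 at a threshold of 0.01. The members called were 2 at the higher filter and 7 in voom without the local median. Members called lower were 2 with no filter, in voom and in the authors' deposited table, 3 and 4 without the local median (limma and voom), and 0 at the higher filter, which leaves SPRED2 untested. Same-numbered libraries share only a number (correlation of deviations −0.0456), and with the replicate block limma called 7283 genes and 4 members, with each member's call unchanged. With a library left out, the lone sample of its group is assumed to vary like the other group. Of the other genes named, PEBP1 reversed under quantile normalization (0.08) and without the length trend (0.01), and among genes not called NF1 (−0.10) and LZTR1 (−0.05) reversed without the length trend and IL17RD without the local median (−0.02), while NF1 was called higher under 5 alternatives and IL17RD and LZTR1 under 3 each and MAPK3 under 1; the cause was not tested. DUSP6 and SPRY4 had the fewest reads of the members.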
